A study of Mus musculus with 9 samples.

Results

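The response of the mouse heart to coronary ligation was read from 6 of the 9 libraries in the series, the 3 labelled as coronary artery ligation and the 3 labelled as sham surgery. All were taken as members because the sample titles and treatment fields name these surgeries, and every gene kept by a low-count filter was compared between them. The hearts came from NOD-SCID mice, an immunodeficient strain that carries the scid mutation of a DNA repair kinase and lacks mature T and B cells. The border zone of the infarct is given as the tissue of every group, so the sham libraries are from the corresponding tissue of hearts that were operated on but not ligated. The names of the deposited files of these ligated hearts add the words MI and vehicle. The other 3 libraries are from ligated hearts that received cells named FOXO3-GE-MPCs, and they entered the statistical model only to help estimate the spread between libraries. Age, sex and the time between surgery and sampling are not given in the labels, and neither is a statement that replicates are separate animals, so every p-value here measures the spread between these libraries.

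Ligation stops blood flow to part of the ventricle, and muscle in the starved territory dies within hours. Dead tissue is cleared by neutrophils and macrophages, complement marks debris, fibroblasts lay down scar, and the surviving muscle at the edge of the infarct changes its contractile, electrical and metabolic gene programme. The adult heart normally obtains most of its energy from fatty acids burned in mitochondria, and its muscle cells have largely left the cell cycle.

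Gene counts per library lay between 4549268 and 7515052, and 3 counts corresponded to 0.375 to 0.639 CPM (the usual count scaled to library size, here with TMM factors). The share of gene counts that came from the mitochondrial genome was 19.6% ± 0.417 in sham and 13.2% ± 0.695 after ligation (SD, n = 3 in each group), with an exact two-sided permutation p = 0.1, the smallest that 3 against 3 libraries allow. The column headers of sham replicates 1 and 2 share a name stem, as do those of ligation replicates 2 and 3. What the stem stands for is not given in the sources used here. With such libraries summed, 4571 genes were called in place of 5277. Heart muscle genes dominated all 6 libraries, with cardiac troponin T (Tnnt2) at 9247, 9620.3 and 9247 CPM in sham and 9641, 8704 and 8575 CPM after ligation. This shows heart muscle and cannot tell the border zone from other parts of the heart. In what follows, levels are CPM in the order of replicates 1, 2 and 3, and changes are ligation minus sham on the log2 scale. A gene is said to rise or fall only at an adjusted p under 0.05 in the quasi-likelihood test of edgeR, adjusted by Benjamini-Hochberg over all 13825 genes tested.

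A large part of the border zone transcriptome differed between the ligation and sham libraries. Anything else that differed between these groups cannot be told apart from ligation. By that test 5277 genes were called, which is 38.2% of those tested. Of these, 2783 genes were higher (20.1% of those tested) and 2494 were lower (18.0%), while 979 changed at least 2-fold (7.08%), 676 of them upward (4.89%) and 303 downward (2.19%). CPM ranges of the groups did not overlap for 6579 genes, or 47.6%. The median change over all genes was 0.008. Libraries were also scaled by their totals alone, in place of TMM. That median then moved to 0.197, and the called genes were 78.7% higher rather than 52.7%. The sign of changes smaller than about 0.2 therefore depends on the scaling. Larger falls can lose their call, and 4131 of the 5277 genes remained called under library totals. Each direction below is relative to the TMM scale unless both are given.

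**Figure D1:**
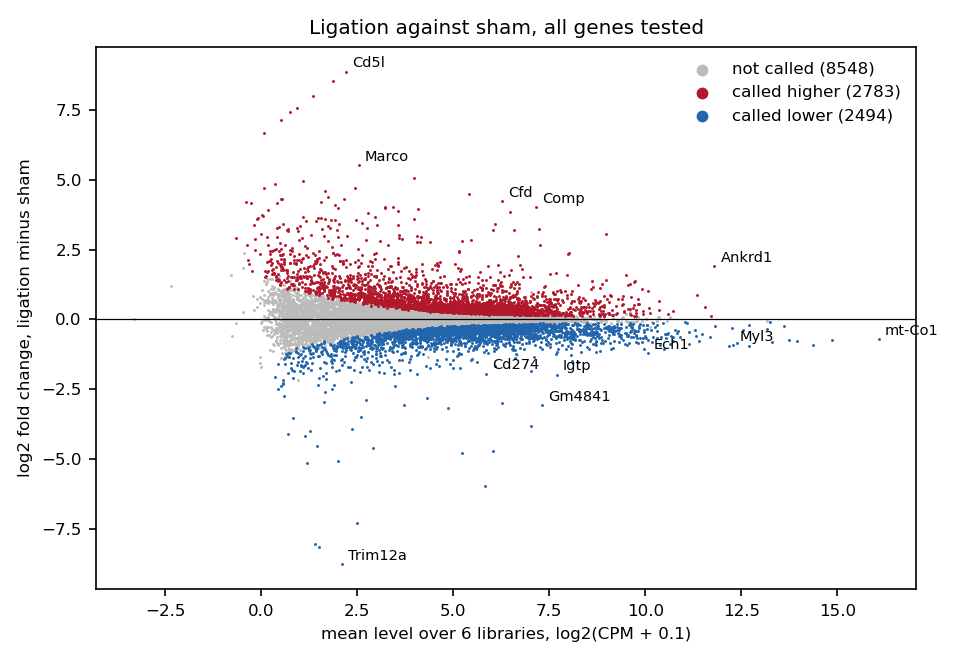
Each point is 1 of the 13825 genes tested, with its mean level over the 6 libraries on the horizontal axis (log2 of CPM plus 0.1) and its log2 change, ligation minus sham, on the vertical axis. Red and blue points are the 2783 genes called higher and the 2494 called lower on the TMM scale (under library totals alone the called genes were 78.7% higher). Large rises such as Comp and Cfd stand at moderate levels, while the most abundant called genes, such as mt-Co1 and Myl3, are lower.

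Several of the clearest rises were in secreted proteins of scar tissue. Comp (chr8:70373558-70382066), a matrix protein best known from cartilage and tendon, was at 14.8, 16.1 and 18.3 CPM in sham and 267, 258 and 277 CPM after ligation (rise 4.02, SE 0.0728). Ccn5, a matricellular protein, rose by 3.19 from 21.5, 16.6 and 18.4 to 177, 167 and 173 CPM. Ccn2, a matricellular growth factor induced by stretch and TGF-beta, rose by 2.40 from 87.6, 80.6 and 80.2 to 459, 420.2 and 431 CPM, and 11.1% of its 31-mers occur in another gene. Other large rises from a low sham level were Col6a5, a collagen VI chain (0.876 to 30.3 CPM as group means), Slc6a4, the serotonin transporter (0.288 to 6.23 CPM), Lgals7, a galectin of epithelia (0.226 to 5.9 CPM), and Vat1l (0.273 to 5.43 CPM). None of these 7 genes had overlapping CPM ranges.

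Most macrophage genes rose. Of 30 tested macrophage and monocyte markers, 22 rose and 2 fell (23 and 0 under library totals), with a median change of 0.64, against 20.1% higher and 18.0% lower over all genes. Their summed level was 1124 to 1152 CPM in sham and 1843 to 1880.4 CPM after ligation. In bulk tissue, fewer or more cells of a type and less or more RNA per cell cannot be told apart, and this holds for every cell type marker below. All list counts are over members that passed the low-count filter, which a gene that is low in sham can pass through the ligated libraries alone. Each list count below is to be read beside the 20.1% called higher and 18.0% called lower over all genes. Ccr2, the receptor that marks macrophages derived from blood monocytes, was at 3.92, 4.45 and 4.6 CPM in sham and 15.3, 13.2 and 16.6 CPM after ligation (rise 1.79, SE 0.193). Adgre1, which encodes the macrophage surface protein F4/80, rose by 1.06 from 16.6, 13 and 16.5 to 35.6, 28.2 and 32.9 CPM, and the lysosomal protease Ctss rose by 1.30 from 28.8, 28.2 and 28.9 to 75.9, 69.5 and 67.6 CPM. No range of these 3 genes overlapped.

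Of the 30 members, 2 fell and 6 did not pass the test. The larger fall was in Ly6c2, a marker of inflammatory monocytes, at 1.07, 6.1 and 11.1 CPM in sham and 2.98, 1.74 and 2.38 CPM after ligation (fall 1.41), where the groups overlap and sham replicate 1 is the lowest library. It was not called without ligation replicate 2 (-1.23), ligation replicate 3 (-1.46), sham replicate 2 (-1.42) or sham replicate 3 (-0.65), and neither DESeq2 nor limma-voom called it, and 15.7% of its 31-mers are shared. Lyve1, the hyaluronan receptor on resident macrophages and on lymphatic vessels, changed by -0.12 (adjusted p = 0.356), and the phosphatidylserine receptor Timd4 stood at 4.81, 4.61 and 3.17 CPM in sham and 4.47, 4.63 and 4.25 CPM after ligation with overlapping ranges. The mannose receptor Mrc1 changed by 0.16 without passing the test. Cd163, the scavenger receptor for haptoglobin and hemoglobin, fell by 0.44 from 38.6, 36.4 and 35.7 to 27.7, 25.8 and 28 CPM and was not called under library totals (-0.25). Marco, a scavenger receptor known from alveolar and serous-cavity macrophages, was at 0, 0.165 and 0.476 CPM in sham and 12.4, 11 and 10.1 CPM after ligation (rise 5.52, SE 0.424). Cd5l, a protein secreted by tissue macrophages, had no count in sham and 8.74, 9.69 and 8.62 CPM after ligation.

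Genes of macrophages that engulf debris and lipid were among the larger rises of the myeloid set, with 15 of 30 tested members higher and 5 lower. Gpnmb, a membrane glycoprotein of lipid-laden macrophages, rose from 3.92, 3.79 and 4.76 to 32, 29.2 and 24.8 CPM (2.76, SE 0.157). Trem2, the lipid-sensing receptor of the same cells, rose from 7.83, 10.2 and 6.98 to 24.3, 20.8 and 26.1 CPM (1.51, SE 0.154). The elastase Mmp12 rose by 4.12, osteopontin (Spp1) by 3.60 and galectin-3 (Lgals3) by 1.96. The iron exporter Slc40a1 and the lipid-handling genes Lpl and Cd36 fell by 1.30, 0.63 and 0.59, and the last pair is also abundant in heart muscle and capillaries. Of 30 lysosomal genes 19 rose and 3 fell (25 and 1 under library totals). The cholesterol carrier Npc2 rose by 0.74. With the libraries of a shared header stem summed, 14 were called higher.

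Neutrophil genes were low in both groups. S100a8 and S100a9, the paired calcium-binding proteins that fill neutrophils, fell by 1.92 and 1.90. S100a9 was at 21.2, 18.5 and 17.5 CPM in sham and 3.84, 5.93 and 5.12 CPM after ligation, without overlap. The granulocyte receptors Csf3r and Cxcr2 did not pass the test, with changes of 0.64 and -0.42, and 10 of the other listed neutrophil genes had too few counts to test. Among 6 tested members Mmp9 alone rose, by 1.29, which was not called without sham replicate 2 (1.02) or ligation replicate 3 (1.11). Of the T, B and NK cell list only Ighm, the IgM heavy chain, was testable; it rose by 0.66 from 11.2, 10.4 and 8.57 to 13.6, 15.3 and 18 CPM and was not called without ligation replicate 3 (0.52) or sham replicate 3 (0.55). The other 21 members had too few counts, and 5 of them had no count in any of the 6 libraries. Of 8 tested dendritic and mast cell genes 2 rose and 3 fell (2 and 2 under library totals). The mast cell tryptase Tpsb2 fell by 1.37 from 3.38, 2.14 and 1.75 to 0.852, 0.868 and 1 CPM and was not called without ligation replicate 2 (-1.33) or sham replicate 1 (-1.07). The mast cell chymase Cma1 fell by 1.19 from 2.85, 1.81 and 1.75 to 1.07, 0.434 and 1.25 CPM and was not called without ligation replicate 1 (-1.27), ligation replicate 2 (-0.84), sham replicate 1 (-0.94), sham replicate 2 (-1.30) or sham replicate 3 (-1.32), and not called under library totals (-1.0).

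Of 24 chemokine and receptor genes 10 rose and 4 fell (12 and 2 under library totals). The share that fell is no larger than the 18.0% called lower over all genes. Cxcl13, the attractant of B cells, rose by 4.01 from 1.6, 0.824 and 0.794 to 16.6, 16.6 and 18.5 CPM. Ccl8, a monocyte attractant, rose by 1.49, and Cxcl14, a chemokine made by stromal cells, by 1.35. Cxcl9, a target of interferon gamma, fell by 1.66 from 35.4, 38.4 and 37.5 to 13.2, 10.1 and 12.1 CPM, and the stromal homing signal Cxcl12 fell by 0.61 from 519.7 to 341 CPM. Among 23 cytokine genes 11 rose and 3 fell (15 and 1 under library totals). Il33, an alarmin released by damaged stromal cells, was at 12.8, 13.7 and 12.9 CPM in sham and 54.8, 54 and 49.5 CPM after ligation (rise 2.0, SE 0.0951). Il18, a cytokine released by the inflammasome, rose by 1.76 and was not called without ligation replicate 3 (1.24), sham replicate 1 (1.68) or sham replicate 3 (1.44). Il15, which sustains NK cells, fell by 1.80 from 15.7, 15.3 and 19.7 to 4.9, 4.49 and 5.12 CPM. The colony-stimulating factor Csf1 stayed at 76.7 ± 2.89 and 76.8 ± 1.28 CPM (mean ± SD, n = 3 in each group).

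Complement rose nearly throughout. Of 24 tested genes 21 rose and 2 fell (21 and 0 under library totals), with a median change of 1.03. Without genes that share at least 10% of their 31-mers, 15 of 17 rose and the median was 0.64. The central component C3 was at 283, 277 and 266 CPM in sham and 694, 731 and 763 CPM after ligation (rise 1.41, SE 0.0471, edgeR adjusted p = 3.46e-15). C7, of the membrane attack complex, rose by 1.70 from 33.6, 37.4 and 33.7 to 110.4, 109 and 122 CPM. The recognition proteins C1qa, C1qb and C1qc rose by 0.58, 0.47 and 0.40, and the anaphylatoxin receptors C3ar1 and C5ar1 by 1.02 and 0.62. Inhibitors rose as well, Serping1 by 0.65 and Cfi by 3.98, the latter from a sham mean of only 0.44 CPM. The membrane inhibitor Cd59a fell by 0.33 and was not called under library totals (-0.14). C4b rose by 1.68, but 48.8% of its 31-mers lie in another gene. Cfd, adipsin, rose from 7.65, 7.08 and 8.57 to 149, 144 and 147 CPM (4.23, SE 0.0877), and it is also an adipocyte marker, described with that list below. Macrophage markers and complement rose in the same 3 libraries, and the part of the former in the latter was not tested.

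Of 12 class II antigen presentation genes 5 rose and 0 fell. The invariant chain Cd74 rose from 105, 109 and 115 to 239, 203 and 204 CPM (0.97) and H2-Eb1 by 0.85, whereas H2-Ab1 was at 80.6, 86 and 84.8 CPM in sham and 79.5, 77.8 and 92.6 CPM after ligation with a change of 0.0. In the class I pathway 2 of 17 genes rose and 11 fell, a split that became 6 and 9 under library totals. The difference between the classes was not tested. Psmb9 and Psmb8, catalytic subunits of the immunoproteasome, fell by 0.85 and 0.77, the peptide transporter Tap1 by 0.72, and the class I transactivator Nlrc5 by 0.55. Psmb9 was at 67.5, 68.2 and 80.2 CPM in sham and 35.8, 38.8 and 44.1 CPM after ligation, without overlap. The common light chain B2m did not pass the test, at 1053 ± 55.4 and 1059 ± 53.8 CPM.

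More interferon-stimulated genes fell than rose. Of 36 tested members 2 rose and 17 fell, with a median of -0.25 (-0.06 under library totals, with 3 higher and 14 lower). The list includes immunity-related and guanylate-binding GTPases, which attack vacuoles of intracellular parasites and are induced mainly by interferon gamma. Igtp (ENSMUSG00000078853, chr11:58199556-58207591), also known as Irgm3, was at 304, 339 and 346 CPM in sham and 90.6, 76 and 86.1 CPM after ligation (fall 1.97, SE 0.0729, edgeR adjusted p = 1.79e-14). The 3 ligated libraries are all below the sham range, although its exons overlap another gene and 15.2% of its 31-mers are shared. Irgm1 fell by 1.05 from 124, 121 and 127 to 59, 64.1 and 56.9 CPM, Iigp1 by 1.18, Gbp3 by 0.90 and Gbp7 by 0.96. Gm4841, an uncharacterised gene of the same GTPase family, fell by 3.06 from 287, 273 and 294 to 29.2, 34.1 and 37.8 CPM, with 20.1% of 31-mers shared. The transcription factor Irf1 fell by 0.47.

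Genes that type I interferon induces strongly gave a mixed picture. Isg15, Ifit1, Mx1 and Irf7 did not pass the test, with changes of -0.13, -0.02, 0.10 and -0.16. Rsad2, the antiviral enzyme viperin, fell by 1.12 from 35.6, 46.6 and 47.5 to 19.8, 19.4 and 20.4 CPM. Oas1a, a sensor of double-stranded RNA, rose by 0.65 from 12.3, 9.56 and 9.05 to 16.4, 17.1 and 14.9 CPM, but 68.1% of its 31-mers belong also to neighbouring Oas1 copies. Cd274, which encodes PD-L1 and is outside the list, fell by 1.94 (SE 0.0816) from 94.7, 88.5 and 89.2 to 24.1, 21.7 and 25 CPM. The letters of the interferon-stimulated response element were sought upstream of these genes. The motif, GAAA followed by any 2 bases and GAAA, searched on both strands in the 250 bases before each start, was in 15 of 26 listed members with a window (57.7%) and in 3.26% of 10262 tested genes with a RefSeq promoter. Of class I presentation genes 7.14% hold it. The gamma-activated site TTCNNNGAA was in 8 of the 26 (30.8%) and in 7.02% of all. Windows of the members with the largest change in each direction that hold the motif are shown from RefSeq (GRCm38.p6), 5′ to 3′ along the gene, with that motif or its reverse complement in capitals, because genes with the same motif moved in opposite directions here. Igtp lies at chr11:58199306-58199555, plus strand, Rsad2 at chr12:26456453-26456702, minus strand, and Oas1a at chr5:120907526-120907775, minus strand.
Igtp: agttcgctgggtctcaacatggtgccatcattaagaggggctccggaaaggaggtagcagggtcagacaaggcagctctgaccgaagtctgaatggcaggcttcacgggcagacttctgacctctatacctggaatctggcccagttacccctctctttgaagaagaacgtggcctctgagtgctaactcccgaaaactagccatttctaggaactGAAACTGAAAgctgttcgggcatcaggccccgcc
Rsad2: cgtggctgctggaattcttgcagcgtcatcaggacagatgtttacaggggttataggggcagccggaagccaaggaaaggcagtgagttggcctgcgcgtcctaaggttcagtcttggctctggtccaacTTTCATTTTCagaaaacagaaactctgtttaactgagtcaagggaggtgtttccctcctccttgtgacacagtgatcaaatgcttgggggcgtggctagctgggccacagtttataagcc
Oas1a: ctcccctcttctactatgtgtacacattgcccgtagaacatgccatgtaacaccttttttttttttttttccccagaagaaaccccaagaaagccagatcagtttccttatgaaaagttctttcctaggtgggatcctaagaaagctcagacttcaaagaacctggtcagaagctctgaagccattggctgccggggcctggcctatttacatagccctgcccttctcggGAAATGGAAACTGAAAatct
In Igtp the match begins 34 bases before the start, in Rsad2 it is on the other strand, and in Oas1a 2 matches overlap. A match describes letters only. Igtp and Oas1a each also hold 1 TTCNNNGAA, which does not overlap the capitals.

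**Figure D2:**
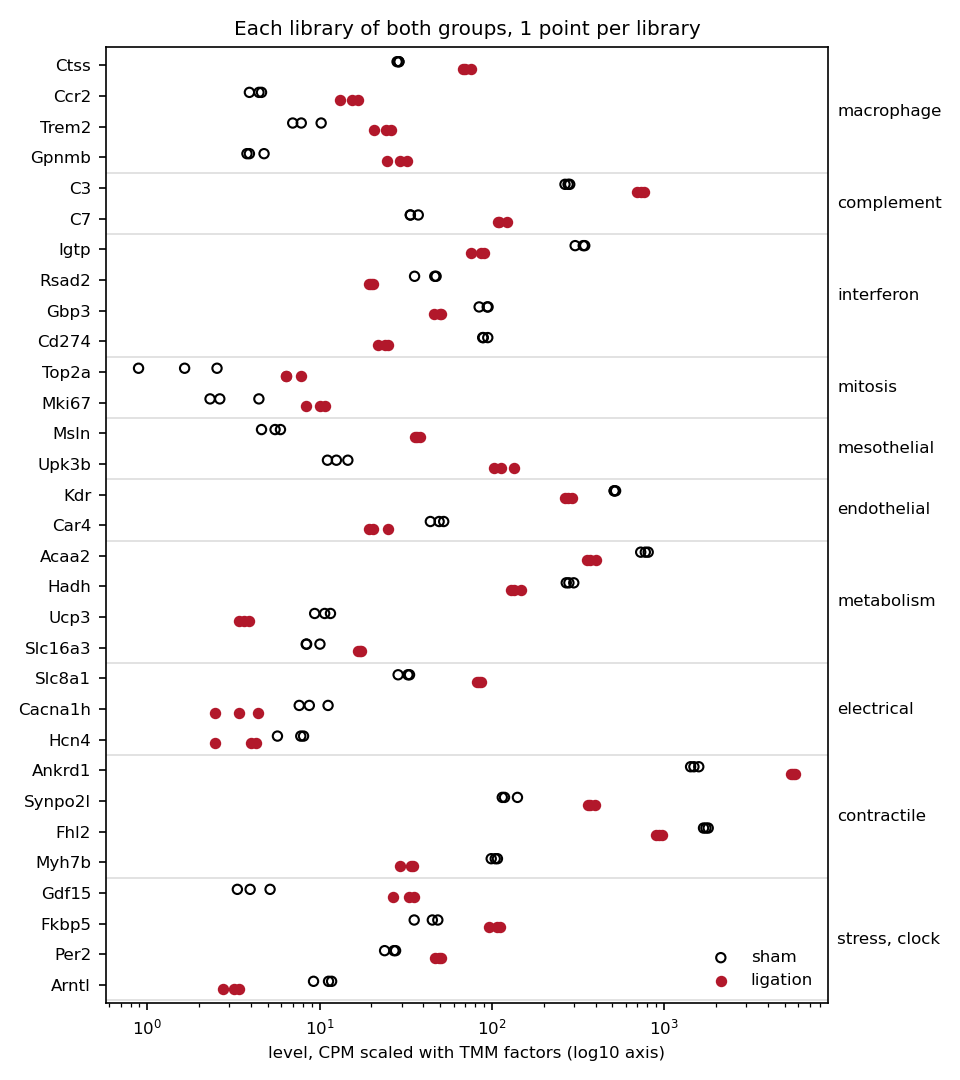
Each row is a gene and each point a library, with sham as open circles, ligation as filled red circles and CPM on a log10 axis. The genes were picked for the plot among called genes whose groups do not overlap, so the separation in every row is by choice: Gpnmb and Trem2 are higher after ligation in all 3 libraries, Igtp, Rsad2, Gbp3 and Cd274 are lower in all 3, and the same holds for the other processes listed at the right.

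The summed level of the 30 listed mitotic genes was 77.1 to 91.9 CPM in sham and 134 to 143 CPM after ligation. Of these, 22 passed the low-count filter, and 13 of them rose and 0 fell. Several have under 1 CPM in sham and could pass that filter only through ligated libraries, so this count is in part set by the filter and is given as a description. With no filter 30 were tested and 14 were called higher and 0 lower. Of 29 replication genes 1 rose and 1 fell, with a median of 0.12 (0.31 under library totals, with 6 higher and 1 lower). The contrast between the lists was not itself tested. Top2a (ENSMUSG00000020914, chr11:98992943-99024189), the topoisomerase that untangles chromosomes before division, was at 0.89, 1.65 and 2.54 CPM in sham and 6.39, 7.81 and 6.38 CPM after ligation (rise 1.99, SE 0.317). Mki67, the Ki-67 antigen of cycling cells, rose by 1.62 from 2.31, 2.64 and 4.44 to 8.31, 10.7 and 10 CPM. Cyclin A2 (Ccna2) rose by 2.31, the ubiquitin-conjugating enzyme Ube2c by 1.91, and the kinase Cdk1 by 1.53, all from sham means under 1 CPM. The helicase subunits Mcm2 to Mcm7 did not pass, with Mcm6 at 17.6, 19.4 and 19.7 CPM in sham and 19.8, 20.1 and 22 CPM after ligation. Pcna, the sliding clamp, changed by -0.25 (adjusted p = 0.0527). Only 9 mitotic genes were called higher with libraries of a shared header stem summed, and 9 by DESeq2.

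The letters TTTGAA, the core of the cell cycle homology region bound by the MuvB complex, were in 8 of 18 mitotic members with a window (44.4%) against 12.7% of all. CCAAT, the box of NF-Y, was in 15 of 18 (83.3%) against 39.8%. Top2a (chr11:99024190-99024439, minus strand) and Ube2c (chr2:164769679-164769928, plus strand) hold it and are among the members with the largest rises that the naming rule selects, and their windows are shown with TTTGAA or its reverse complement in capitals. It overlaps no CCAAT in either.
Top2a: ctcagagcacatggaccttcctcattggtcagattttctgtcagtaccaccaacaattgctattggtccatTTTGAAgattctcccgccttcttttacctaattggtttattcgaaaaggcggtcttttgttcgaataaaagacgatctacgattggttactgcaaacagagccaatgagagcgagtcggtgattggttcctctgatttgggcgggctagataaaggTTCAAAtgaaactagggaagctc
Ube2c: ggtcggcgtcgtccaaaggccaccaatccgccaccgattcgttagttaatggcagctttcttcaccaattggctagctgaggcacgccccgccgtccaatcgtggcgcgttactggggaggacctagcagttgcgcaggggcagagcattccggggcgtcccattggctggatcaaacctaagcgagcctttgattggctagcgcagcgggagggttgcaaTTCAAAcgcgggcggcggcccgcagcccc
Each also holds 6 CCAAT boxes, counted on both strands.

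Of 22 inhibitors of the cycle and targets of p53, 11 rose and 2 fell. With libraries of a shared header stem summed 7 were called higher, and 9 by DESeq2. Cdkn2b, which encodes p15 and is induced by TGF-beta, rose by 1.71 from 1.28 to 4.23 CPM. The BH3 gene Pmaip1 (Noxa) rose by 2.01 from 1.25, 0 and 0.794 to 1.92, 4.34 and 1.88 CPM and was not called without ligation replicate 2 (1.48) or sham replicate 2 (1.43). Cdkn1a, which encodes p21, went from 64.8, 69 and 68.6 to 80.5, 73.7 and 77.4 CPM, and its change of 0.19 was not called without sham replicates 1 (0.16) or 3 (0.20) or ligation replicates 1 (0.16) or 3 (0.17). Cdkn1c, p57, fell by 0.79. Of 26 cell death genes 6 rose and 2 fell, beside 20.1% higher and 18.0% lower over all genes. No direction is given for that list. The survival gene Bcl2 rose by 0.79 from 14.8, 12.5 and 13.7 to 22.6, 24.9 and 23.2 CPM, whereas the pro-death gene Bax changed by -0.15 without passing.

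Most endothelial genes fell. Of 29 tested markers 24 fell and 1 rose, with a median of -0.44 (-0.25 under library totals, with 20 lower). Their summed level went from 6756 to 6904 to 4585 to 4738 CPM. Car4, the carbonic anhydrase on the surface of heart capillaries, was at 44, 49.4 and 52.5 CPM in sham and 24.9, 20.4 and 19.4 CPM after ligation (fall 1.20, SE 0.105). Gpihbp1, which anchors lipoprotein lipase to capillaries, fell by 0.82 from 188, 212 and 194 to 112, 111 and 113 CPM. Kdr, the main VEGF receptor, fell by 0.89, the tight junction protein Cldn5 by 0.77 and the angiopoietin receptor Tek by 0.66. Vwf, the clotting factor of larger vessels and veins, rose by 0.23 with overlapping ranges, and was not called without ligation replicate 3 (0.18). Prox1 and Flt4, of lymphatic vessels, changed by -0.01 and 0.09 without passing. The venular receptor Ackr1 rose by 1.97 from 0.534, 0.824 and 0.794 to 2.34, 3.47 and 2.75 CPM.

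Mural cells and vascular signals followed in part. Among 17 smooth muscle and pericyte genes 10 fell and 3 rose, with a median of -0.40 (-0.21 under library totals, with 8 lower), whereas their summed level was higher after ligation, at 4186 to 4264 CPM in sham and 5113 to 5192 CPM. The pericyte channel subunit Kcnj8 fell by 0.82 from 73.2, 71.5 and 71.3 to 39.4, 43.8 and 38.6 CPM and the regulator Rgs5 by 0.56 from 882 to 599 CPM, while the contractile genes Myh11 and Acta2 fell by 0.47 and 0.43. Pdgfrb, a receptor on pericytes and fibroblasts, changed by 0.02. Des rose by 0.87, and desmin is also a protein of heart muscle. Pdgfb, the endothelial ligand of Pdgfrb, fell by 0.71 from 136, 136 and 129.9 to 74.4, 82.2 and 87.6 CPM. Vegfa fell by 0.53. Vegfb fell by 0.21 but was called neither with GC and length offsets (-0.07) nor under library totals (-0.02), whereas Vegfd rose by 1.68 from 3.03, 3.95 and 5.24 to 13.2, 13.2 and 13.2 CPM. Of the Notch pathway, Notch1 fell by 0.43, Jag2 by 0.54 and the target genes Hey1 and Heyl by 0.53 and 0.59. The endothelial ligand Dll4 fell by 0.28 and was not called without ligation replicate 2 (-0.19), sham replicate 1 (-0.26) or sham replicate 3 (-0.29), and not called under library totals (-0.09). Notch2 rose by 0.39 and was not called without sham replicate 1 (0.30). The apelin gene Apln, made by sprouting endothelium, fell by 0.53 and was not called without ligation replicate 3 (-0.42), sham replicate 1 (-0.50) or sham replicate 2 (-0.49), and not called under library totals (-0.35). Endothelial markers fell in the same libraries as the genes that fell here, and their part in these falls was not tested.

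Markers of the mesothelium, the cell sheet that covers the heart, rose together. Of 14 tested members 14 rose and 0 fell, with a median of 2.44, and their summed level went from 122 to 138 to 423 to 474 CPM. Msln, mesothelin, was at 5.52, 5.93 and 4.6 CPM in sham and 35.6, 38.1 and 36.8 CPM after ligation (rise 2.78, SE 0.126). The plaque protein Upk3b rose by 3.21 from 14.6, 12.5 and 11.1 to 103, 113 and 135 CPM and the mucin Muc16 by 4.03 from 1.23 to 20.1 CPM. Wt1, the transcription factor of the epicardium and its activated descendants, rose by 0.50 with overlapping ranges, and was not called without sham replicate 3 (0.37) or ligation replicate 3 (0.41). Sox9, a regulator of chondrogenic and valve cells, rose by 0.83, and Aldh1a2, which makes retinoic acid in the epicardium, by 0.78.

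Adipocyte markers rose in part. Of 9 tested genes 7 rose and 2 fell, and the summed level went from 113 to 133 to 431 to 470.3 CPM. Adipoq, adiponectin, was at 1.42, 1.65 and 1.27 CPM in sham and 21.9, 20.5 and 22.8 CPM after ligation, and the lipid droplet protein Plin1 at 0.712, 0.824 and 1.75 and 14.3, 10.6 and 18.4 CPM. Car3 rose by 3.84 from 13.5, 10.5 and 11.1 to 165, 161 and 175 CPM. Scd1, which desaturates fatty acids and is abundant in fat, rose by 2.67 from 37.9, 42.3 and 43.3 to 262, 263 and 265 CPM, and Cyp2e1, an oxidase of liver and fat, by 4.48 from 4.27, 3.46 and 3.17 to 79.3, 77.1 and 86.5 CPM. The adipocyte regulator Pparg fell by 0.45 and was not called under library totals (-0.27). The hormone-sensitive lipase Lipe fell by 0.62, and both are expressed outside fat, in endothelium and heart muscle among others. The Schwann cell gene Sox10 changed by -0.30 without passing. The red cell anion exchanger Slc4a1 rose by 2.13, and the summed alpha-globin genes Hba-a1 and Hba-a2, which cannot be counted apart, went from 469, 523 and 499.6 to 821, 875 and 925 CPM.

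**Figure D3:**
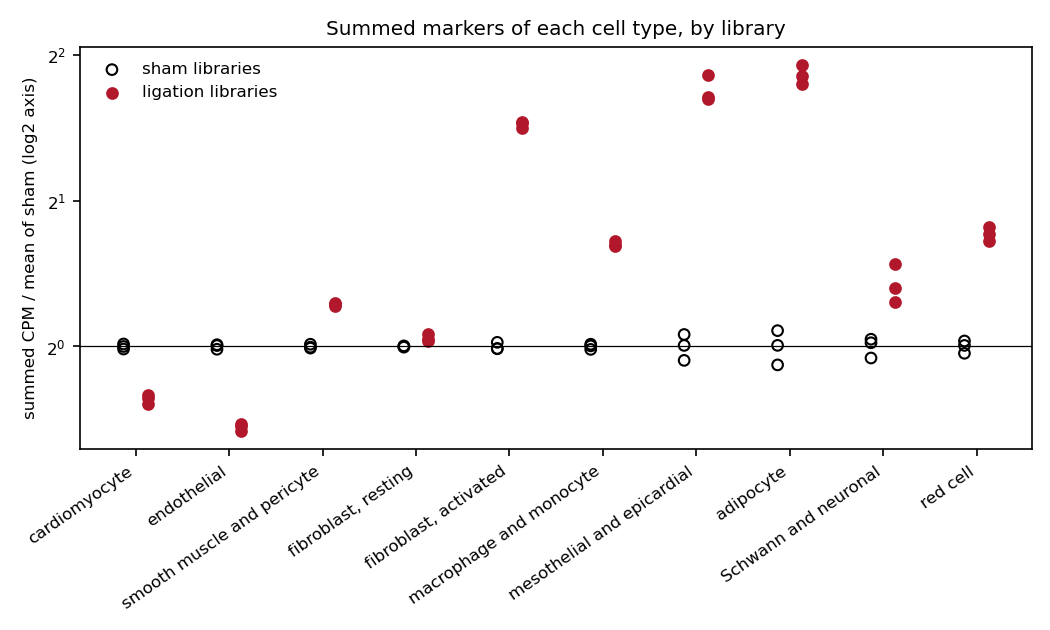
For each cell type list, the summed CPM of its matched markers in every library is divided by the mean of the 3 sham libraries and drawn on a log2 axis, with sham as open circles and ligation as filled red circles. Activated fibroblast, macrophage, mesothelial, adipocyte and red cell sums are higher in all 3 ligation libraries and endothelial and cardiomyocyte sums are lower, where the macrophage sum went from 1124 to 1152 to 1843 to 1880.4 CPM and the endothelial sum from 6756 to 6904 to 4585 to 4738 CPM.

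Most genes of fuel oxidation fell. Of 32 tested fatty acid genes 26 fell and 0 rose, with a median of -0.52 (-0.33 under library totals, with 21 lower, and -0.50 in a fit whose offsets account for GC and length). Hadh, the dehydrogenase of the third step of mitochondrial beta-oxidation, was at 299, 270.3 and 280.0 CPM in sham and 147, 129.7 and 135 CPM after ligation (fall 1.05, SE 0.0588, edgeR adjusted p = 1.44e-11). The thiolase of the last step, Acaa2, fell by 1.03 from 731, 808 and 777 to 369, 404 and 359 CPM. Ech1, an auxiliary isomerase, fell by 1.20 from 1499.8, 1485 and 1473 to 656, 642 and 639 CPM. The uncoupling protein Ucp3 fell by 1.52 from 11.6, 10.7 and 9.37 to 3.41, 3.91 and 3.62 CPM. All of these ranges were apart. The very-long-chain acyl-CoA dehydrogenase gene Acadvl, the liver-type transferase Cpt1a and the pyruvate dehydrogenase kinase Pdk4 changed by -0.01, -0.01 and 0.06. The muscle-type transferase Cpt1b was called lower, but 93.7% of its 31-mers are shared, so its level is uncertain.

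The Krebs cycle and respiratory chain were lower too. Of 31 Krebs cycle and pyruvate entry genes 20 fell and 3 rose (median -0.26, or -0.07 under library totals with 12 lower and 8 higher). Idh2, the mitochondrial NADP isocitrate dehydrogenase, fell by 0.63 from 1993, 2109 and 2009 to 1309.6, 1346 and 1303 CPM. Pdk1, a hypoxia-induced kinase that shuts pyruvate out of the cycle, rose by 0.91 from 137, 147 and 134 to 253, 267 and 265 CPM, and Pdha1, the subunit it phosphorylates, rose by 0.77. In complex I, 35 of 37 nuclear-encoded genes fell and 0 rose, with a median of -0.71. In complexes III to V, 36 of 37 fell and 1 rose, with a median of -0.65. Ndufa5 fell by 0.87 from 938, 890.3 and 934 to 548, 521 and 442 CPM, and Atp5e, of the ATP synthase, by 1.04 from 779.6, 729 and 727 to 362, 370.4 and 351 CPM. Uqcrc2, a core protein of complex III, rose by 0.13, a call that was lost without sham replicate 2 (0.12) or ligation replicate 2 (0.10). Ndufs1, the largest complex I subunit, changed by -0.12 without passing.

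Transcript length moved with these falls. Over all genes, split into 10 equal groups by length, the group with the shortest transcripts (57 to 1219 bases) had a median change of -0.26 with 35% called lower, and the group with the longest had a median of 0.10 with 11.1% called lower. Many respiratory subunits have short transcripts. With offsets for GC content and length the complex I median moved to -0.48 with 34 called lower, and that of complexes III to V to -0.41 with 34 lower. The share of the falls that goes with length was not tested further. Of 15 mitochondrially encoded genes 11 fell and 0 rose. The most abundant, mt-Co1 of cytochrome oxidase, went from 84779.6, 86461 and 86249 to 54311, 52681 and 51383 CPM (fall 0.70, SE 0.0193), with 63.9% of its 31-mers shared, and mt-Cytb of complex III fell by 0.75. Where almost all 31-mers are shared with nuclear copies the libraries disagreed within groups, as for mt-Atp6 at 1218, 465 and 356 CPM in sham and 1229, 591 and 508 CPM after ligation.

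**Figure D4:**
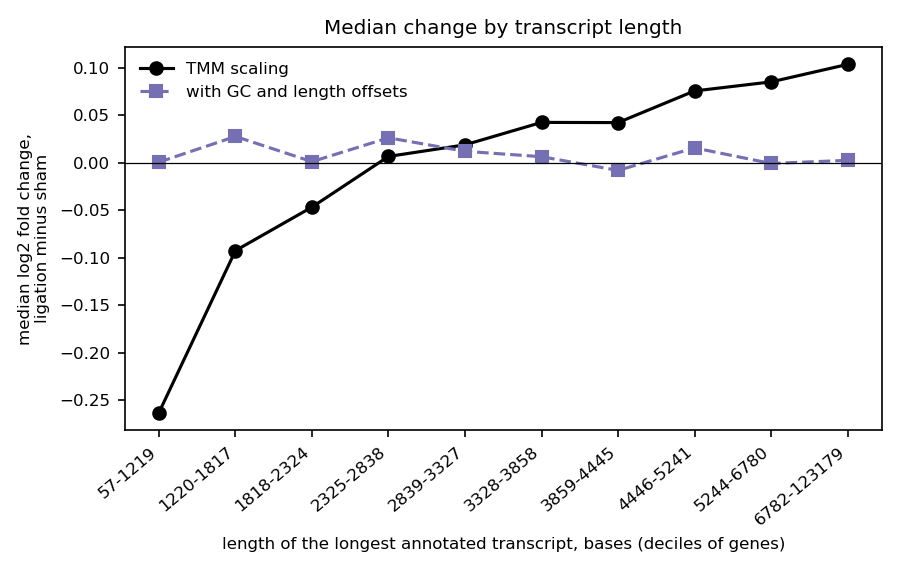
Genes tested were split into 10 groups by the length of their longest annotated transcript, and the median log2 change, ligation minus sham, of each group is drawn for the TMM fit (black circles) and for a fit with GC and length offsets (purple squares). The black line climbs from -0.26 in the shortest group to 0.10 in the longest, and the line with offsets stays near 0.

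Among the regulators of this programme, Ppargc1a, the coactivator PGC-1alpha, was at 65.7, 55.8 and 57.1 CPM in sham and 55.2, 46.3 and 44.3 CPM after ligation, and its change of -0.31 was called with all libraries but not without sham replicate 1 (-0.23), ligation replicate 2 (-0.27) or ligation replicate 3 (-0.26), and it was not called under library totals (-0.12). Ppara, the receptor that drives fatty acid oxidation, rose by 0.55 from 6.05, 5.6 and 7.3 to 9.38, 10.1 and 8.5 CPM and was not called without ligation replicate 2 (0.49), sham replicate 1 (0.53) or sham replicate 2 (0.47). The nuclear receptor Esrra fell by 0.29 and was not called under library totals (-0.10). The retinoid receptor Rxrg fell by 0.82 from 79.4, 79.7 and 71.6 to 47.7, 41.8 and 42.1 CPM. The mitophagy kinase gene Pink1 fell by 0.47. Letters of the estrogen-related receptor site, AAGGTCA on either strand, were in 4.0% of fatty acid oxidation members with a promoter window, 3.7% of Krebs cycle members, 9.09% of complex I members and 7.14% of members of complexes III to V, against 3.49% of all genes.

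Glucose genes were split, with 8 of 29 higher and 11 lower on the TMM scale and 14 higher and 8 lower under library totals. The insulin-dependent transporter Slc2a4 fell by 0.41 from 365, 379 and 353 to 267, 293 and 265 CPM while the basal transporter Slc2a1 rose by 0.54 from 21.9, 22.1 and 22.4 to 29.6, 33.7 and 32.6 CPM. Slc16a3, which exports lactate, rose by 0.93 from 8.37, 10 and 8.41 to 16.6, 17.4 and 17.2 CPM, and the platelet-type phosphofructokinase Pfkp by 0.74. The muscle isoforms Eno3 and Pgam2 fell by 0.51 and 0.63, and Ldhb by 0.63. Gapdh, often used as a reference gene, stood at 113, 619 and 593 CPM in sham and 228, 196 and 163 CPM after ligation, so that sham replicate 1 lay below all ligated libraries, and 31.8% of its 31-mers are shared. Its change of -1.18 was called with all libraries and not called without sham replicate 2 (-0.87) or sham replicate 3 (-0.91). Genes of creatine, myoglobin and phosphate transfer had 8 of 21 lower and 6 higher on the TMM scale, against 6 and 10 under library totals, so no direction is given for that list. Among them, mitochondrial creatine kinase Ckmt2 fell by 0.61 from 2338, 2253 and 2303 to 1528, 1539 and 1446 CPM and the ADP/ATP carrier Slc25a4 by 0.83 from 7053, 6727 and 6930.5 to 4055, 3897 and 3702 CPM. Gatm, which makes the precursor of creatine, rose by 1.46, and the creatine transporter Slc6a8 by 0.74. Branched-chain amino acid genes had 7 of 20 lower and 0 higher on the TMM scale, against 1 and 6 under library totals, so no direction is given for that list. The one-carbon enzymes Mthfd1l and Mthfd2 rose by 1.48 and 0.81. Cardiomyocyte markers had 7 higher and 10 lower of 20 (11 and 7 under library totals), with a median of -0.08 (0.11 under library totals), and their summed level went from 80611 to 82582 to 62054 to 64912 CPM, and their part in the metabolic falls was not tested.

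**Figure D5:**
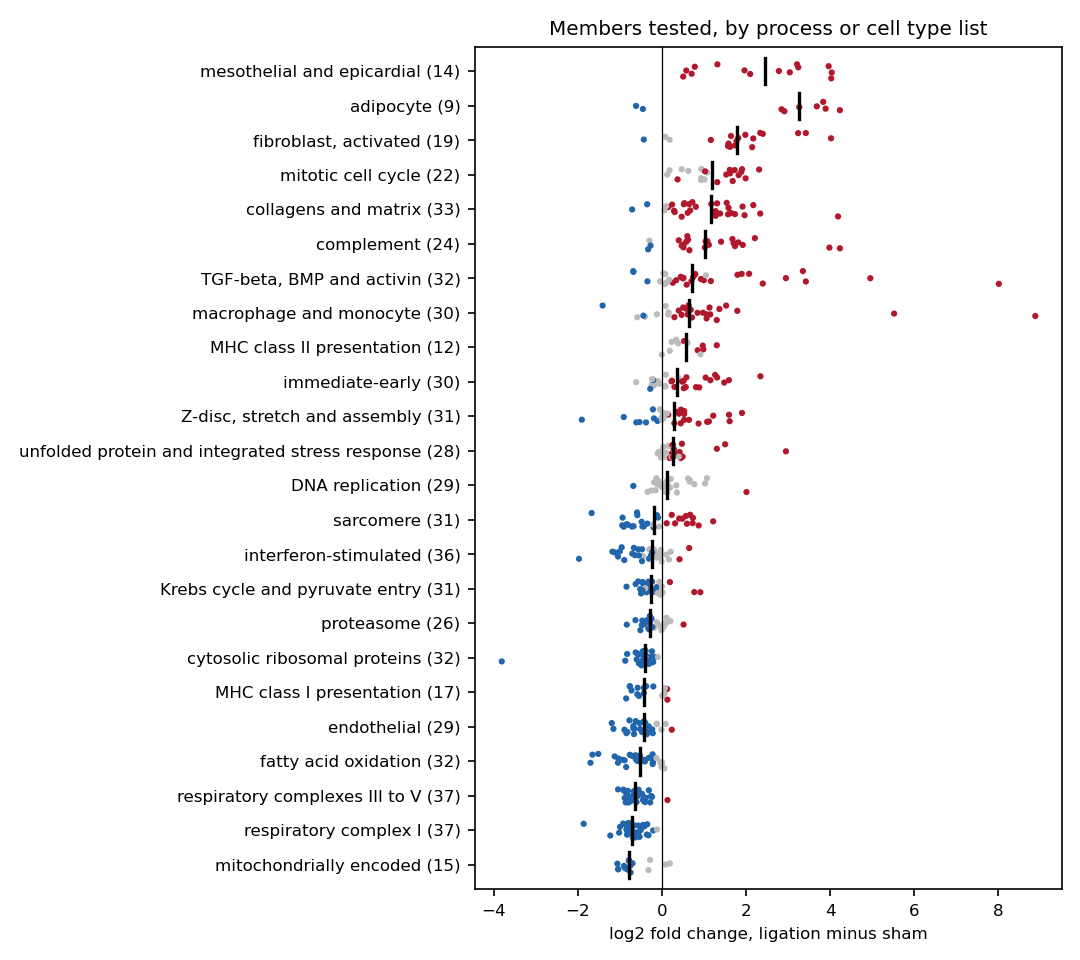
Each row is 1 of 24 process or cell type lists, out of 66, with the number of members tested, and each point is a member placed by its log2 change, ligation minus sham, on the TMM scale. Red and blue points were called higher and lower, grey points were not called, and the black bar is the median of the members that passed the low-count filter, which runs from 3.27 for adipocyte markers to -0.79 for mitochondrially encoded genes.

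Calcium cycling genes of the muscle cell moved apart. Slc8a1 (ENSMUSG00000054640, chr17:81373105-81738377), the sodium-calcium exchanger that removes calcium across the surface membrane, was at 32.6, 33.3 and 28.6 CPM in sham and 86.7, 81.8 and 83.9 CPM after ligation (rise 1.42, SE 0.0762). Atp2a2, the SERCA pump that returns calcium to the reticulum, fell by 0.38 from 6739, 6556 and 6818 to 5349, 5159.9 and 4991 CPM, and its inhibitor Pln, phospholamban, by 0.61 from 1281, 1142 and 1280.1 to 875, 829.7 and 729.9 CPM. The ranges are apart in each. The release channel Ryr2 rose by 0.36 and the L-type channel Cacna1c by 0.23, the latter not called without ligation replicate 3 (0.17), whereas the T-type channel Cacna1h fell by 1.41 from 8.72, 11.2 and 7.62 to 3.41, 2.46 and 4.38 CPM. The reticular calcium buffer Casq2 and its anchor Trdn changed by 0.08 and -0.04 without passing. Over the list 6 of 28 rose and 11 fell, which became 15 and 7 under library totals.

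Channel genes had 7 of 29 higher and 11 lower (7 and 8 under library totals), beside 20.1% higher and 18.0% lower over all genes. The share of channel genes that rose is near that over all genes. Gja5, the connexin of atria and the conduction system, rose by 0.77, and Gja1, the ventricular connexin, by 0.29. Of the potassium channel genes on the list, Kcna5 fell by 0.68, Kcnk3 fell by 0.46 and Kcnv2 fell by 1.54. The pacemaker channel Hcn4 fell by 1.03 from 5.7, 8.07 and 7.78 to 4.26, 2.46 and 4 CPM while Hcn2 rose by 0.47. In adrenergic signalling 10 of 25 genes rose and 1 fell (9 and 3 with GC and length offsets). Grk5, a kinase that silences adrenergic receptors, rose by 1.07 from 34.7, 34.1 and 35.1 to 79.1, 68.4 and 71.5 CPM, and Adcy5, a main adenylyl cyclase of heart muscle, by 0.71. The receptor Adrb1 changed by -0.20 without passing, and the alpha receptor Adra1b fell by 0.70. Ace, the angiotensin-converting enzyme, rose by 0.92 from 116, 114 and 101 to 187, 218 and 222 CPM, while the receptor Agtr1a fell by 0.70.

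Contractile genes moved both ways. Of 31 sarcomere genes 12 rose and 17 fell (14 and 14 under library totals). The ventricular light chains Myl2 and Myl3 fell by 0.94 and 0.91 and cardiac troponin I, Tnni3, by 0.95. Myl3 was at 6477, 6723 and 6346 CPM in sham and 3507, 3554 and 3343 CPM after ligation. Myh7b, a slow myosin heavy chain, fell by 1.67 from 99.1, 108 and 105 to 34.1, 34.7 and 29.4 CPM. The thin-filament length regulators Lmod2 and Tmod1 rose by 0.74 and 0.67, the latter with 40.2% of 31-mers shared.

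Of 31 Z-disc and stretch genes 17 rose and 8 fell (23 and 5 under library totals). Ankrd1 (ENSMUSG00000024803, chr19:36111961-36120099), a stretch-induced partner of titin, was at 1489, 1424 and 1588 CPM in sham and 5766, 5459 and 5626 CPM after ligation (rise 1.90, SE 0.0362, edgeR adjusted p = 5.01e-19). Xirp2 rose by 1.61 from 377, 325 and 376 to 1114, 1096 and 1085 CPM and Synpo2l by 1.59 from 141, 118 and 115 to 371, 359.6 and 399 CPM, both actin-binding proteins of the Z-disc or intercalated disc. The LIM proteins moved in opposite directions, Fhl1 up by 1.22 from 184, 172 and 191 to 433, 408 and 432 CPM and Fhl2 down by 0.91 from 1802, 1747 and 1692 to 965, 931 and 897 CPM. Ankrd2, a relative of Ankrd1, fell by 1.91 from 3.15 to 0.889 CPM. The muscle ubiquitin ligase Fbxo32 (atrogin-1) rose by 1.12, while its counterpart Trim63 (MuRF1) changed by 0.12. Of 26 genes that anchor the sarcomere to membrane and neighbour, 16 rose and 4 fell (21 and 2 under library totals), with dystrophin (Dmd) up by 0.86 and desmoplakin (Dsp) by 0.82.

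Cardiac transcription factors leaned upward, with 11 of 25 higher and 1 lower (17 and 1 under library totals). Runx1, a haematopoietic and skeletal factor that is low in the adult heart, rose by 1.78 from 2.85, 3.79 and 3.97 to 14.1, 9.98 and 12.9 CPM. Tbx20, Tbx5 and Tead1 rose by 0.56, 0.51 and 0.49. Mef2a, Mef2c and Mef2d did not pass, with changes of -0.02, 0.11 and 0.08. Hopx, a homeodomain partner of serum response factor, fell by 0.93 from 119, 84.7 and 112 to 61.2, 57.2 and 48.9 CPM. Of atrial genes, Bmp10 had 2 counts over the sham libraries and 80 over the ligated ones, a ratio of 36.7 (95% counting interval 9.83 to 308), while the atrial light chains Myl7 and Myl4 fell by 0.68 and 0.46.

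Of 33 genes for collagens and other matrix proteins 29 rose and 2 fell. Lox, which cross-links collagen, rose by 1.74 from 15.3, 18.6 and 15.6 to 55.2, 56.7 and 53.4 CPM, the fibronectin gene Fn1 by 1.64 and the microfibril gene Mfap4 by 1.97 from 28.3, 29.5 and 30.3 to 115, 112 and 118 CPM. Col5a3 fell by 0.71, Thbs2 fell by 0.35 and was not called under library totals (-0.16), and elastin (Eln) changed by 0.10. Among fibroblast markers, 16 of 19 activation genes rose and 1 fell, with Cthrc1 up by 3.24 and the pleiotrophin gene Ptn by 1.82. The member that fell was Acta2, smooth muscle actin and a marker of myofibroblasts, at 335, 315 and 325 CPM in sham and 239, 244 and 239 CPM after ligation. Fap, fibroblast activation protein, changed by 0.08. Resting markers had 7 of 18 higher and 5 lower (10 and 2 under library totals), with Mfap5 up by 0.95 and Scara5 down by 0.47. Of proteases and inhibitors 17 of 29 rose and 4 fell. Adam12 rose by 1.40, Timp2 by 1.0 from 177, 184 and 180.3 to 349, 359 and 376 CPM, and Timp4, the inhibitor most typical of heart muscle, fell by 1.06 from 153, 149.9 and 165 to 70.7, 77.1 and 75.6 CPM.

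Of 32 genes of the TGF-beta, BMP and activin pathways 22 rose and 3 fell. Tgfb2 rose by 1.80 from 14.1, 16.3 and 18.4 to 54.5, 58.3 and 57.1 CPM and Tgfb3 by 1.0, whereas Tgfb1 stayed at 60.8 ± 6.31 and 61.9 ± 6.08 CPM. The receptor Tgfbr1 rose by 0.93 and the latency protein Ltbp2 by 3.42 from 9.26, 14.2 and 11.4 to 115, 121 and 138 CPM. Gdf15, a stress-induced member of the family, rose by 2.95 (SE 0.167) from 5.16, 3.95 and 3.33 to 26.6, 32.8 and 35.3 CPM. The activin antagonist follistatin, Fst, rose by 3.35. Of the BMP targets, Id1 and Id3 fell by 0.68 and 0.35 and Id2 changed by 0.17, and Bmp6 fell by 0.68 from 87.9, 103 and 101 to 60.3, 55.1 and 66.1 CPM.

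Several secreted Wnt antagonists rose, Sfrp1 by 1.43 from 34.4, 39.4 and 42.4 to 103, 99 and 110.0 CPM, Frzb by 1.34 and Dkk3 by 1.06. The feedback target Axin2 rose as well, by 1.33 from 3.2, 3.13 and 3.17 to 8.1, 7.52 and 8.38 CPM. Over Wnt and Notch genes 14 of 31 rose and 7 fell. Of 39 growth factor genes 21 rose and 6 fell (26 and 3 under library totals). Several ligands of the epidermal growth factor receptor family rose, Hbegf by 1.24 from 15.5, 14 and 12.1 to 33.7, 31.5 and 33 CPM, Tgfa by 1.71, Ereg by 2.48 and Nrg1 by 1.48. The hepatocyte growth factor Hgf and its receptor Met rose by 2.29 and 1.56 from sham means of 0.445 and 2.25 CPM. Igfbp5, an IGF-binding protein, was at 233, 211 and 209 CPM in sham and 524, 560.4 and 594 CPM after ligation (rise 1.36).

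Of 28 genes of the unfolded protein and integrated stress responses 16 rose and 0 fell, with a median of 0.26 (0.45 under library totals, with 22 higher). The stress regulator Nupr1 rose by 1.31 from 13, 11.9 and 12.1 to 30.5, 30.2 and 30.5 CPM and the transcription factor Xbp1 by 0.47, while Atf4, the factor that integrates these signals, changed by 0.10 in RNA level. Immediate-early genes had 17 of 30 higher and 2 lower (21 and 0 under library totals), with Fos up by 1.48 from 2.67, 3.62 and 3.02 to 10, 8.54 and 8 CPM, Egr2 by 1.59, Nr4a3 by 1.31 and Myc by 1.27, and Jun at 75.5 ± 3.77 and 79.3 ± 5.34 CPM. Among hypoxia targets 10 of 26 rose and 4 fell (16 and 3 under library totals). Hif1a rose by 0.73 from 63.4, 61.9 and 72.7 to 108, 109.7 and 110.1 CPM and the feedback hydroxylase Egln3 by 0.66, while Epas1, which encodes HIF-2alpha and is abundant in endothelium, fell by 0.42. Adm and Ndrg1, commonly induced by low oxygen, changed by 0.07 and 0.01.

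Redox genes moved both ways, 13 of 39 up and 13 down (19 and 8 under library totals). Nox4, an oxidase of fibroblasts and muscle that makes hydrogen peroxide, rose by 1.90 from 2.85, 2.97 and 2.7 to 11.3, 10.4 and 10.4 CPM, and Cybb, of the phagocyte oxidase, by 1.17. Gpx3, a secreted glutathione peroxidase, rose by 1.08 from 599.6, 637 and 606 to 1269, 1277 and 1355 CPM. The cytosolic and mitochondrial superoxide dismutases Sod1 and Sod2 fell by 0.71 and 0.36. The peroxiredoxin Prdx3 fell by 0.22 but was called neither with GC and length offsets (-0.11) nor under library totals (-0.03). Among chaperones, the mitochondrial pair Hspd1 and Hspe1 fell by 0.64 and 0.80 and the steroid-receptor cochaperone Fkbp4 by 1.02 from 363, 362 and 353 to 178, 177 and 177 CPM, while Dnajb4 rose by 0.79. The haptoglobin gene Hp rose by 2.82 from 7.65, 12.2 and 7.78 to 64.8, 60.9 and 69.4 CPM, and the ferritin heavy chain Fth1 fell by 0.46.

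Of 20 clock genes 8 rose and 4 fell, against 12 and 1 under library totals and 5 and 5 of 16 without genes that share 31-mers. Arntl (ENSMUSG00000055116, chr7:113207465-113314126), which encodes the activator BMAL1, was at 11.7, 9.23 and 11.3 CPM in sham and 3.41, 3.18 and 2.75 CPM after ligation (fall 1.80, SE 0.228). The repressors Per1 and Per2, which peak in the opposite phase, rose by 0.86 and 0.90, Per2 from 23.8, 27 and 27.6 to 50.9, 49.1 and 46.9 CPM. Npas2, an activator partner, fell by 1.09 from 3.56, 2.47 and 4.6 to 1.07, 1.3 and 2.38 CPM and was not called without ligation replicate 1 (-0.92), ligation replicate 2 (-0.94), sham replicate 1 (-1.09) or sham replicate 3 (-0.85), and not called under library totals (-0.90). The repressor Nr1d2 changed by 0.13. The hour of sampling is not in the labels, so time of day and ligation cannot be told apart for these genes. The E-box CACGTG was in 5 of 17 clock members with a window (29.4%) against 9.79% of all. The glucocorticoid targets Fkbp5, Tsc22d3 and Zbtb16 rose by 1.28, 0.99 and 1.01, with Fkbp5 at 35.4, 45.1 and 48.6 CPM in sham and 107, 95.8 and 112 CPM after ligation, whereas Sgk1 fell by 0.47. Over that list 10 of 18 rose and 2 fell.

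Of 20 genes of prostaglandins and leukotrienes 8 rose and 2 fell (13 and 2 under library totals). Alox15, a lipoxygenase, had no count in sham and 5.97, 8.25 and 7.12 CPM after ligation, at least 13.3-fold higher against a floor of 3 counts in a single library. Ptgs2, the inducible cyclooxygenase, rose by 1.55 from 2.67, 1.48 and 1.9 to 5.54, 6.8 and 5.38 CPM, the prostaglandin E receptor Ptger3 by 3.60 and the prostacyclin synthase Ptgis by 1.18 from 42.9, 45 and 48.4 to 101, 108 and 101 CPM. Ptgds, the prostaglandin D synthase, fell by 0.59 and the leukotriene enzyme Alox5 by 1.01. Of 20 genes of the aryl hydrocarbon receptor and foreign compounds 7 rose and 7 fell. Cyp1a1, a classical target of that receptor, was at 4.45, 4.28 and 6.51 CPM in sham and had no count after ligation, at least 7.95-fold lower against the same floor. Cyp1b1, an enzyme of fibroblasts, rose by 1.02, while the aryl hydrocarbon receptor Ahr fell by 0.69 from 30.8, 31.5 and 28.3 to 18.1, 20 and 17.9 CPM. Among clotting genes the platelet chemokine Pf4 fell by 0.68 and tissue plasminogen activator Plat by 0.51.

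Ribosomal protein genes were mostly lower. Of 32 ribosomal protein genes 30 fell and 0 rose, with a median of -0.41, -0.22 under library totals and -0.25 with GC and length offsets. Of these only 6 share less than 10% of their 31-mers with another gene, and 6 of those fell. Rps3 fell by 0.24 from 617, 659 and 616 to 549, 535 and 519 CPM and was not called under library totals (-0.05). The listed member Rps18 fell by 3.81 from 261, 227 and 238 to 26.8, 14.8 and 12.8 CPM, and 39.4% of its 31-mers are shared. Summed with its processed copies it went from 268, 239 and 244 CPM to 35.6, 24.6 and 30.5 CPM. Other ribosomal protein genes, outside the list and named by the rules over all genes, were lower as well. Rpl29 was at 120.1, 117 and 99.4 CPM in sham and 1.7, 1.59 and 2 CPM after ligation, Rpl21 at 78.8, 66.4 and 72.4 and 1.92, 2.6 and 3 CPM, and Rpl34 at 125, 122 and 130.3 and 6.82, 5.06 and 3.25 CPM. The summed level of Rpl34 and its copy Rpl34-ps1 was 329, 357 and 354 CPM in sham and 301, 323 and 305 CPM after ligation. The sum of Rpl21 with its processed copies still went from 137, 125 and 118 CPM to 29.2, 26.3 and 28.9 CPM. Proteasome genes had 16 of 26 lower and 1 higher, against 7 and 6 under library totals, and autophagy genes 8 of 25 higher and 2 lower, against 16 and 1 under library totals.

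Other genes were present in one group and nearly absent from the other. Trim12a, of the TRIM family, stood at 8.54, 9.56 and 7.14 CPM in sham and had no count after ligation, at least 13.2-fold lower against a floor of 3 counts in a single library. Olfr1033, an olfactory receptor gene, had 199 counts over the sham libraries and 1 over the ligated ones, a ratio of 217 (95% counting interval 38.5 to 8610). Nxpe4 went from 9.97, 11.2 and 7.3 to 0.426, 0.724 and 0.625 CPM, and AI506816 from 16, 11.9 and 15.1 to 0.639, 0.579 and 0.5 CPM with 25.2% of 31-mers shared. The sham libraries were all high and the ligated libraries all low for each of these.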

How the data were processed

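Total RNA of the border zone was extracted with TRIzol and made into libraries with the NEBNext Ultra RNA kit, per the labels' protocols, and that kit does not mark strand. The deposited files hold raw read counts per gene made by the authors, 1 file per library, with no normalization. Their build is mm10 per the submitters' processing notes, and the aligner, the counter and the annotation release are not given in the sources used here. Each file has 53465 gene lines and 5 summary lines, which were left out of library sizes. Reads outside annotated genes were 4.21% ± 0.035 of the total in sham and 4.75% ± 0.155 after ligation (SD, n = 3). Symbols, coordinates (GRCm38), transcript lengths and 31-mers came from GENCODE M21, which matched 53360 IDs, and promoters from RefSeq GRCm38.p6. Genes with shared sequence, overlapping exons or an antisense partner are uncertain.

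Counts were filtered with filterByExpr, scaled with TMM and fitted with edgeR 4.0.16 in R 4.3.3 as 1 model over 9 libraries (quasi-likelihood, 6 residual degrees of freedom), and p-values were adjusted with the Benjamini-Hochberg method over 13825 genes. SE is the change divided by the square root of F. The gene lists (66 lists, 1413 genes tested, 927 called) and the members were chosen with earlier results of these data known, and no set test was made. Genes were named by rule: in each list, the 3 largest rises and falls among called genes with a mean of at least 1 CPM and no overlap; over all genes, the 12 largest with at least 5 CPM and the 10 smallest adjusted p with at least 10 CPM in each direction; and members that define a process, whatever their values. Cd274, Gm4841 and the other unlisted genes come from the rules over all genes, and Id2, Nr1d2 and like members were added as contrasts. The rules over lists and over all genes select 318 genes, of which 143 are not printed, for length or because some items are not reported here. Without 1 library, 8 of the printed and 16 of the unprinted genes among these were no longer called, so the printed genes hold their calls more often than the whole selection.

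In simulated counts for this comparison over 13825 genes, 77% of 200 genes changed by 1 on the log2 scale and 48.5% of 200 changed by 0.5 were called, with 6 and 15 unchanged genes, and 1 gene was called where none had changed. The data had far more calls, 38.2% of genes, and recovery at such a share was not simulated. Replicates of a group differed by more than sampling noise (2.29 to 3.88 chi-square per gene). Alternatives were other scalings, filters, DESeq2 1.42.0, limma-voom 3.58.1, a replicate block, GC and length offsets, and leaving out each library. Intervals and 3-count floors cover counting error only. Figures were drawn with matplotlib 3.10.9.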

Additional observations from a re-analysis of the deposited data

Results flagged for a closer look

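Reads outside annotated genes, which enter no comparison above, took 4.75% ± 0.155 (SD, n = 3) of the total in the ligation libraries and 4.21% ± 0.035 in sham. Every ligation library was above every sham library, with an exact two-sided permutation p = 0.1, the smallest that 3 against 3 allow. Which sequences these reads come from was not analysed here.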

How the results depend on the processing

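Under 12 other scalings, filters and tests with all libraries kept apart, the number of called genes stayed within 1.5 times of 5277, with 4488 by DESeq2's Wald test and 5225 by limma-voom. The direction depended on scaling. Under library totals alone 4966 genes were called higher and 1346 lower, and 4131 of the 5277 remained called. There Acadvl (0.177), Mef2a (0.165), Tnnt2 (0.124) and Trdn (0.149) became called higher, where TMM gave uncalled changes below 0. Apln, Cd163, Cd59a, Cma1, Dll4, Esrra, Ly6c2, Npas2, Pparg, Ppargc1a, Prdx3, Rps3, Thbs2 and Vegfb were no longer called lower under library totals. Of named genes paired with a setting, 46 lost a call under other settings and 49 without 1 library, the latter in 19 genes. A change of sign was not counted as a reversal in 87 pairs where neither fit called the gene, a definition chosen after seeing the data.

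Leaving out 1 library at a time gave 4482 to 4947 calls, 2221 to 2618 higher, 2169 to 2329 lower, 941 to 1042 at least 2-fold changed and 864 to 908 among listed genes. The mitochondrial share differed by -6.38 percentage points, ligation minus sham, by -6.75 to -6.06 without single libraries, and by -9.13 where it was taken over the counts of all other genes.

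With replicate numbers as a block 5134 genes were called, 5027 with GC and length offsets added, and 5159 with the offsets alone, where Cacna1c, Cma1, Notch2, Prdx3 and Vegfb were no longer called. DESeq2's Wald test did not call Cdkn1a, Cma1, Gapdh, Ly6c2, Npas2, Ppara and Tpsb2, and limma-voom did not call Gapdh and Ly6c2. No label pairs the samples by number. Libraries of equal number correlated in their deviations from group means at 0.12, 0.0555 and -0.119 across 9414 genes, so no pairing was assumed. Chosen after seeing the data, summing libraries with a shared header stem gave 4571 calls, without Cdkn1a, Cma1, Dll4, Ppara, Uqcrc2 and Vwf, and leaving out genes that share at least 10% of their 31-mers gave 4480 of 10830 genes tested. Below the 3-count level of 0.375 to 0.639 CPM, presence and absence could not be told apart.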
